A study of Danio rerio with 7 samples.

Results

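Heat-shock proteins and their co-chaperones were followed in cells sorted from the zebrafish heart 60 and 7 days after its ventricle had been injured by freezing (days post injury, dpi). The genes were chosen by name alone: every gene ID whose zebrafish symbol begins as a heat-shock protein (HSPA to HSPE, HSPH1 or a numbered hsp), a DNAJA, DNAJB or DNAJC protein, a BAG protein, a heat-shock factor, a CCT subunit or TCP1, AHSA1, STIP1 or CRYAB. These were 113 of the 31388 IDs in the table. They were sorted by symbol, after the known location of such proteins. In this way 80 were counted as cytosolic (nucleus included, and for J proteins other sites too). A further 18 belonged to the endoplasmic reticulum (ER) and 12 to mitochondria. The other 3 (HSF2BP, TCP11L1 and TCP11L2) match by name and are not chaperones. HSPBAP1 and the transcription factors hsf1, HSF2 and HSF4 are not chaperones either, and stayed among the cytosolic IDs. For short, all 113 are called chaperone IDs here.

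The samples were 3 pools from 60 dpi, numbered 1, 2 and 4, and 4 pools from 7 dpi, numbered 1 to 4. All came from adult zebrafish of 3 to 9 months with the transgenes postnb:CreERT2 and ubb:loxP-GFP-loxP-mCherry, which had received 10 µM 4-OHT (4-hydroxytamoxifen) at 3 and 4 dpi. The Cre recombinase is driven by postnb, a periostin gene used by activated fibroblasts, so mCherry marks cells that used this promoter around the treatment, and their descendants. Each pool held mCherry-positive cells of the ventricular apex from 3 to 5 hearts, released with enzymes and sorted. No uninjured or unlabelled cells were part of the comparison. The labels do not say on which days the pools were dissociated and sorted. Effects of this handling therefore cannot be told apart from those of the time point. P-values measure the spread between these pools only.

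Heat-shock proteins are chaperones: they bind unfolded or partly folded proteins and help them to fold, to stay soluble or to be degraded. In the cytosol, Hsp70 works in a cycle driven by ATP, in which J proteins (DNAJ) start the hydrolysis and exchange factors such as Hsp110 and BAG proteins release the nucleotide; Hsp90 takes over some of its clients, and small heat-shock proteins hold unfolding proteins without using ATP. Constitutive forms are made all the time, whereas inducible forms are transcribed by heat-shock factors within minutes of heat or oxidative stress. The ER and the mitochondrion have their own sets, which respond to other stress signals.

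Values are TPM, a length-corrected transcript abundance scaled to the same sum in every library; the depth behind them is unknown. Differences between the stages, 60 minus 7 dpi, were taken on the log2(TPM + 1) scale and are given with standard errors (SE), and adjusted p-values are limma's, with Benjamini-Hochberg adjustment over all 15130 tested genes and a threshold of 0.05. Between 10840 and 14061 IDs reached 1 TPM in the 60 dpi libraries, against 9844 to 15431 in the 7 dpi libraries, with the fewest in replicate 4 of each group. IDs without a symbol took 15.8 to 19.2% of TPM at 60 dpi and 20.2 to 40.0% at 7 dpi. All 12 fibroblast marker IDs, collagens among them, were at 1 TPM or more in all 7 libraries.

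The chaperone IDs together took 5.27, 6.49 and 5.42% of all TPM in the 60 dpi libraries, against 2.15, 0.937, 1.11 and 1.35% in the 7 dpi libraries. Cytosolic IDs held most of this TPM in both groups. Their mean was 55698 of 57265 TPM at 60 dpi and 12595 of 13867 TPM at 7 dpi. Nearly all of the difference in TPM lay among them too. Summed over the 80 cytosolic IDs, the level was 51255, 63163 and 52676 TPM in the 60 dpi pools and 19644, 8493, 10112 and 12132 TPM in the 7 dpi pools, a ratio of the means of 4.42. The 18 ER IDs summed to 951, 887 and 893 TPM at 60 dpi, against 1245, 544, 608 and 793 TPM at 7 dpi, and here the groups overlapped. Mitochondrial IDs also overlapped, with sums of 441, 823 and 604 TPM in the 60 dpi pools and 590, 296, 318 and 480 TPM in the 7 dpi pools. Among the 7 dpi libraries, replicate 1 had the highest sum in all 3 compartments. Its median-of-ratios size factor was 1.39, against 0.94 to 1.03 in the other 7 dpi libraries. After division by these factors, replicate 4 had the highest mitochondrial sum at 7 dpi (489 TPM, against 424 TPM in replicate 1). In the cytosol and the ER replicate 1 stayed highest (14110 and 895 TPM, against 12363 and 808 TPM in replicate 4).

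**Figure D1:**
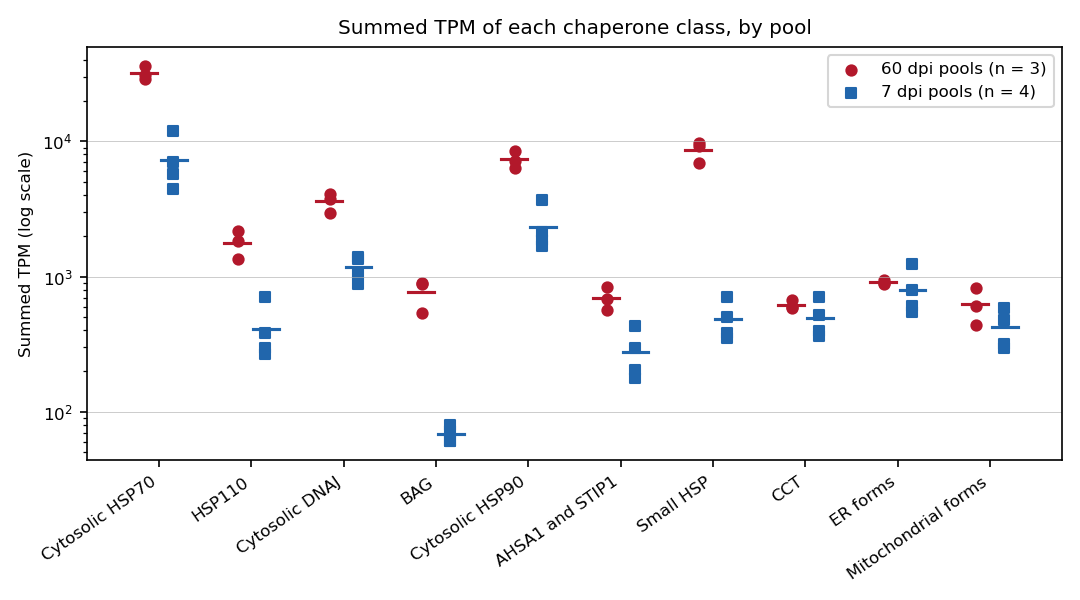
Summed TPM (log axis) of the chaperone classes in each library, with 60 dpi libraries left of 7 dpi libraries and a bar at each group mean. Cytosolic Hsp70 and small heat-shock proteins separate the groups, while the CCT, ER and mitochondrial sums overlap. With median-of-ratios scaling, which is not drawn, the CCT sums did not overlap (531 to 605 TPM at 60 dpi, 381 to 529 TPM at 7 dpi).

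Of the 113 IDs, 91 passed the filter on low values (1 TPM or more in 3 or more libraries). Among all 15130 tested genes, 6.88% passed the test (3.2% higher and 3.68% lower at 60 dpi), and of the 91 chaperone IDs 17.6% did, 15 of them higher and 1 lower at 60 dpi. In 23 of the 91 every 60 dpi library lay above every 7 dpi library and in 3 every one lay below, against 10.3% and 11% of all tested genes (21.3% in either direction). The median log2 difference of the 91 was 0.45, and that of all tested genes -0.04. All 16 calls were cytosolic: of 63 tested cytosolic IDs 15 were higher and 1 lower, while 0 of 16 ER IDs and 0 of 10 mitochondrial IDs passed in limma (1 of each had an unadjusted p under 0.05). Of all 15130 tested genes, 3333 had an unadjusted limma p under 0.05. Whether the compartments differ from each other was not tested. Of the 22 untested IDs, 7 were listed at 0 in every library and the highest group mean was 9.56 TPM. Because 8 of the tested IDs reached 1 TPM in fewer than 3 of the 7 dpi libraries, these shares describe the IDs that passed the filter and not all 113.

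**Figure D2:**
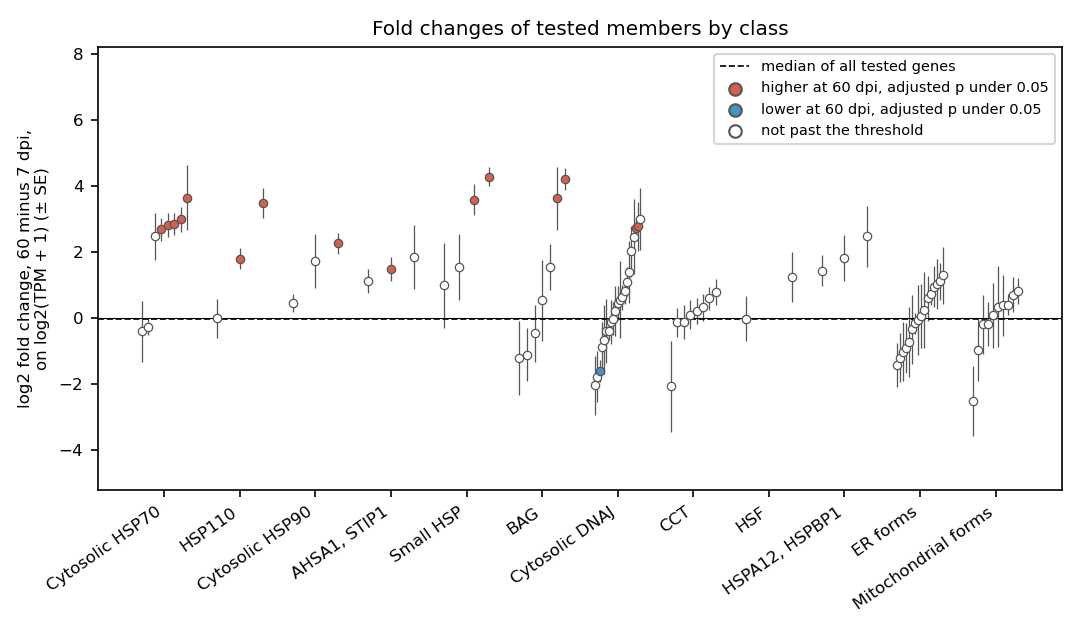
Log2 difference (60 minus 7 dpi, log2(TPM + 1) scale) of the tested IDs by class, with filled points for those past the adjusted threshold; HSPBAP1, TCP11L1 and TCP11L2, which are not chaperones, are not drawn. The filled points lie in cytosolic classes, 15 above 0 and 1 (DNAJC5) below.

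The heat-shock transcription factors were low in both groups. hsf1, the main activator of inducible heat-shock genes, had 7.34, 8.88 and 8.09 TPM at 60 dpi, against 9.76, 4.81, 5.50 and 16.6 TPM at 7 dpi. The 60 dpi values lay within the 7 dpi range, and the difference was -0.02 ± 0.68 (log2, SE, limma adjusted p = 0.994). HSF2, a related factor with roles in development, had 12.7, 8.43 and 40.4 TPM in the 60 dpi pools and 2.75, 11.95, 4.40 and 10.4 TPM in the 7 dpi pools, which overlap (1.24 ± 0.75, limma adjusted p = 0.367). HSF4, known from the lens, averaged 0 TPM in the 60 dpi pools and 0.340 TPM in the 7 dpi pools and was not tested. Transcript levels do not show whether HSF1 protein was active, since it is switched on after translation.

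Cytosolic Hsp70, the central ATP-driven chaperone, has inducible and constitutive forms. Of 8 tested IDs, 5 were higher at 60 dpi, against 3.2% of all tested genes. These 5 were the inducible genes hsp70l, hsp70.1 and hsp70.3, an ID named HSPA2 and hspa1b. HSPA2 (ENSDARG00000092362), the most abundant chaperone ID at 60 dpi, whose mammalian namesake is a testis form, had 10724, 10859 and 8962 TPM at 60 dpi, against 3081, 916, 1331 and 1633 TPM at 7 dpi. All 60 dpi libraries lay well above the highest 7 dpi library, and the difference was 2.69 ± 0.35 (log2, SE, limma adjusted p = 0.0014). The ID ranked 12, 7 and 8 by TPM among all IDs of the 60 dpi libraries, and 32, 88, 71 and 54 in the 7 dpi libraries.

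hsp70l (ENSDARG00000055723), an inducible Hsp70 of zebrafish whose promoter is widely used for heat-driven transgenes, had 7585, 11449 and 7875 TPM in the 60 dpi pools and 2352, 649.98, 905 and 1097 TPM in the 7 dpi pools. The groups did not overlap, and the difference was 2.99 ± 0.38 (log2, SE, limma adjusted p = 0.00113). hsp70.1 (ENSDARG00000029688) had 8067, 8482 and 7267 TPM at 60 dpi, against 2085, 683, 804 and 1414 TPM at 7 dpi (2.81 ± 0.36, limma adjusted p = 0.00106). Its near copy hsp70.3 (ENSDARG00000021924) had 2621, 3085 and 2305 TPM in the 60 dpi pools and 712, 285, 375 and 242 TPM in the 7 dpi pools (2.84 ± 0.35, limma adjusted p = 0.000939). Both were separated in the same way, with 7 dpi replicate 1 nearest to the 60 dpi libraries. In RefSeq's GRCz12tu annotation hsp70.1, hsp70.2 and hsp70.3 follow each other on the chromosome. RSEM shares reads among such similar transcripts, so the split of TPM between these IDs is uncertain, and their sum is given too. HSPA2, hsp70l, hsp70.1 and hsp70.3 together had 28997, 33874 and 26408 TPM at 60 dpi, against 8230, 2533, 3416 and 4387 TPM at 7 dpi, a ratio of the means of 6.41.

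The remaining called ID, hspa1b (ENSDARG00000056210), was far less abundant, with 24.99, 218 and 113 TPM in the 60 dpi pools and 24.8, 11.3, 5.04 and 0.21 TPM in the 7 dpi pools. Its 60 dpi replicate 1 lay only just above 7 dpi replicate 1. The difference was 3.64 ± 0.98 (log2, SE, limma adjusted p = 0.0451), but it did not pass without 60 dpi replicate 2 (adjusted p = 0.173), 60 dpi replicate 4 (0.127), 7 dpi replicate 2 (0.0624), 7 dpi replicate 3 (0.0849) or 7 dpi replicate 4 (0.0658).

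The constitutive form, HSPA8, gave no call in either of its IDs. HSPA8 (ENSDARG00000068992), the housekeeping Hsc70 that folds new proteins and strips clathrin from vesicles, had 2004, 2075 and 2246 TPM at 60 dpi, against 3589, 1915, 2299 and 2589 TPM at 7 dpi. The groups overlapped, and the difference was -0.26 ± 0.26 (log2, SE, limma adjusted p = 0.611); with quantile normalization it was -0.90 and passed as lower at 60 dpi (limma adjusted p = 0.0139). A second HSPA8 ID (ENSDARG00000037403) had 35.2, 57.4 and 69.0 TPM in the 60 dpi pools and 32.02, 3.99, 10.8 and 3.30 TPM in the 7 dpi pools. Its libraries did not overlap, and its difference of 2.47 ± 0.70 missed the threshold (limma adjusted p = 0.0571) but passed without 7 dpi replicate 1 (adjusted p = 0.0189) and with a pseudocount of 5, quantile normalization or median-of-ratios scaling (adjusted p = 0.0432, 0.0376 and 0.0397). The difference between the log2 changes of the inducible and constitutive forms was not tested. As a description, the first HSPA8 ID (ENSDARG00000068992) alone made up 6.45, 5.73 and 7.79% of cytosolic Hsp70 TPM in the 60 dpi libraries. In the 7 dpi libraries its share was 30.2, 42.9, 40.1 and 37.1%. HSPA14, a ribosome-associated relative, was low in both groups, at 0.07 to 6.94 TPM at 60 dpi and 0.06 to 4.45 TPM at 7 dpi (limma adjusted p = 0.859).

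**Figure D3:**
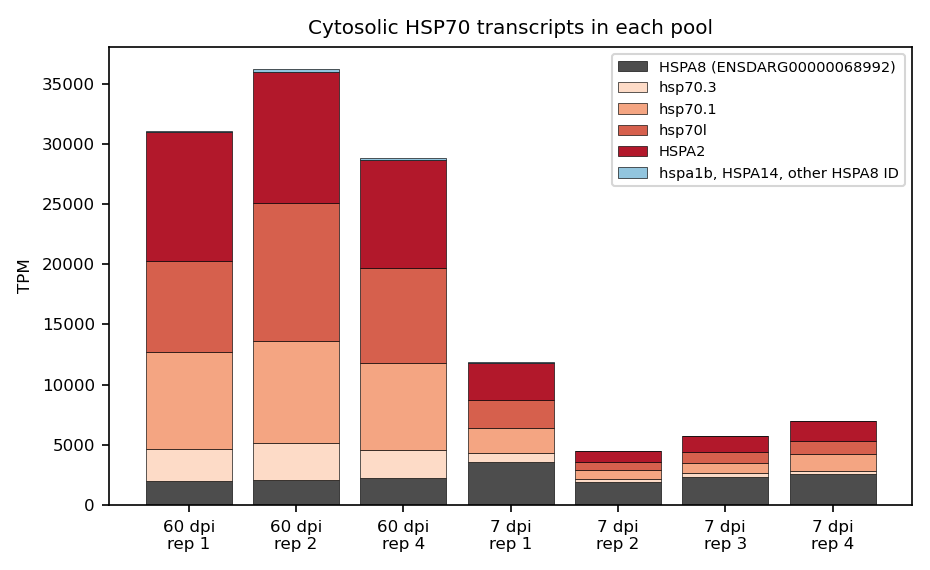
Make-up of cytosolic Hsp70 TPM in each library, 60 dpi libraries to the left of 7 dpi libraries. HSPA8 (ENSDARG00000068992) alone holds 5.73 to 7.79% in the 60 dpi libraries and 30.2 to 42.9% in the 7 dpi libraries. The second HSPA8 ID is drawn together with hspa1b and HSPA14.

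The Hsp110 proteins are Hsp70 relatives that act as exchange factors for it. They were higher at 60 dpi in 2 of 3 tested IDs, against 3.2% of all tested genes. HSPH1 (ENSDARG00000019874), the heat-inducible member, had 373, 1077 and 659 TPM in the 60 dpi pools and 115, 35.6, 46.4 and 54.2 TPM in the 7 dpi pools. The lowest 60 dpi library was above the highest 7 dpi library, and the difference was 3.48 ± 0.45 (log2, SE, limma adjusted p = 0.0012). HSPA4 (ENSDARG00000004754) had 948, 1074 and 1156 TPM at 60 dpi, against 543, 218, 226 and 317 TPM at 7 dpi (1.79 ± 0.33, limma adjusted p = 0.00821), and lost its call without the mean-variance trend (adjusted p = 0.0993). A second HSPA4 ID (ENSDARG00000018989) averaged 18.8 ± 2.79 TPM at 60 dpi (SD, n = 3) and 22.2 ± 15.04 TPM at 7 dpi (SD, n = 4), and its direction turned in 4 of the 18 alternatives. HSPBP1, another exchange factor, had 50.6, 138 and 124 TPM in the 60 dpi pools and 47.2, 27.3, 21.1 and 53.2 TPM in the 7 dpi pools. These overlap through 60 dpi replicate 1, and HSPBP1 did not pass (1.43 ± 0.47, limma adjusted p = 0.096) except without that library (adjusted p = 0.0478). The distant relatives HSPA12A and HSPA12B averaged 36.7 and 24.99 TPM at 60 dpi, against 9.77 and 4.28 TPM at 7 dpi, but neither passed (limma adjusted p = 0.154 and 0.14); HSPA12A did without both libraries numbered 4 (2.76, adjusted p = 0.0341).

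BAG proteins bind Hsp70 through a shared domain and direct its clients to different fates. Of 7 tested, 2 were higher and none lower at 60 dpi, against 3.2% higher and 3.68% lower among all tested genes. No BAG ID had a lower level with an unadjusted limma p under 0.05, which 1880 of all 15130 tested genes had. BAG3 (ENSDARG00000039486), a heat-inducible member that hands misfolded proteins to autophagy and is needed in muscle, had 499, 851 and 741 TPM at 60 dpi, against 46.3, 45.4, 33.2 and 24.1 TPM at 7 dpi. The means were 697 ± 180 TPM at 60 dpi (SD, n = 3) and 37.2 ± 10.6 TPM at 7 dpi (SD, n = 4), and the difference was 4.2 ± 0.34 (log2, SE, limma adjusted p = 0.000101). BAG2 (ENSDARG00000035005), which inhibits the ubiquitin ligase CHIP, had 19.3, 40.3 and 70.9 TPM in the 60 dpi pools and 0.77, 15.1, 2.60 and 0 TPM in the 7 dpi pools. It reached 1 TPM in only 2 of the 7 dpi libraries, so it passed the filter through the 60 dpi group. Its difference of 3.62 ± 0.95 (limma adjusted p = 0.0404) passed in 6 of the 18 alternatives and was lost without 60 dpi replicate 1 (adjusted p = 0.0587), 2 (0.123) or 4 (0.141) and without 7 dpi replicate 1 (0.0872), 3 (0.0748) or 4 (0.0622).

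J proteins are the largest group, with 50 IDs over all compartments, of which 41 were tested. Of the 41, 3 passed, 2 higher and 1 lower at 60 dpi, a share of 7.32%. Among all tested genes the share was 6.88%, and the median log2 difference of the 41 J protein IDs was 0.08. dnajb1b (ENSDARG00000041394), a zebrafish counterpart of the inducible Hsp40 DNAJB1, had 3152, 3263 and 2142 TPM in the 60 dpi pools and 434, 296, 382 and 668 TPM in the 7 dpi pools. The groups stood far apart, at 2852 ± 618 TPM for 60 dpi (SD, n = 3) and 445 ± 159 TPM for 7 dpi (SD, n = 4), with a difference of 2.72 ± 0.30 (log2, SE, limma adjusted p = 0.000648). Its paralog dnajb1a had 44.3, 69.0 and 70.5 TPM at 60 dpi, against 45.3, 16.3, 29.1 and 25.9 TPM at 7 dpi; these overlapped by a small margin, and the test was not passed (1.10 ± 0.44, limma adjusted p = 0.164). DNAJB5 (ENSDARG00000052881), a close relative of DNAJB1, had 20.8, 55.4 and 81.6 TPM in the 60 dpi pools and 9.09, 6.01, 13.2 and 1.12 TPM in the 7 dpi pools. Every 60 dpi library was above every 7 dpi library (2.78 ± 0.74, limma adjusted p = 0.0439). DNAJB5 passed in 6 of the 18 alternatives, and was lost without 60 dpi replicate 2 (adjusted p = 0.144) or 4 (0.155) and without 7 dpi replicate 1 (0.0635), 2 (0.0851), 3 (0.0508) or 4 (0.0525).

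DNAJC5 (ENSDARG00000004836), the cysteine string protein that chaperones the release machinery on secretory vesicles, was the 1 chaperone ID that was lower at 60 dpi. It had 43.1, 71.2 and 76.6 TPM at 60 dpi, against 246, 152, 198 and 181 TPM at 7 dpi. All 60 dpi values lay under the lowest 7 dpi value, and the difference was -1.61 ± 0.33 (log2, SE, limma adjusted p = 0.013); the call was lost without the mean-variance trend (adjusted p = 0.11). Among the cytosolic J proteins that did not pass were DNAJA2 and dnaja1. DNAJA2 (ENSDARG00000104066) had 146, 149 and 169 TPM in the 60 dpi pools and 225, 176, 206 and 209 TPM in the 7 dpi pools; its groups did not overlap, with a difference of only -0.39 ± 0.27 (limma adjusted p = 0.424). dnaja1 had 106, 94.9 and 90.9 TPM at 60 dpi, against 106, 48.0, 48.1 and 37.3 TPM at 7 dpi, which overlap through 7 dpi replicate 1 (0.81 ± 0.40, limma adjusted p = 0.257).

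**Figure D4:**
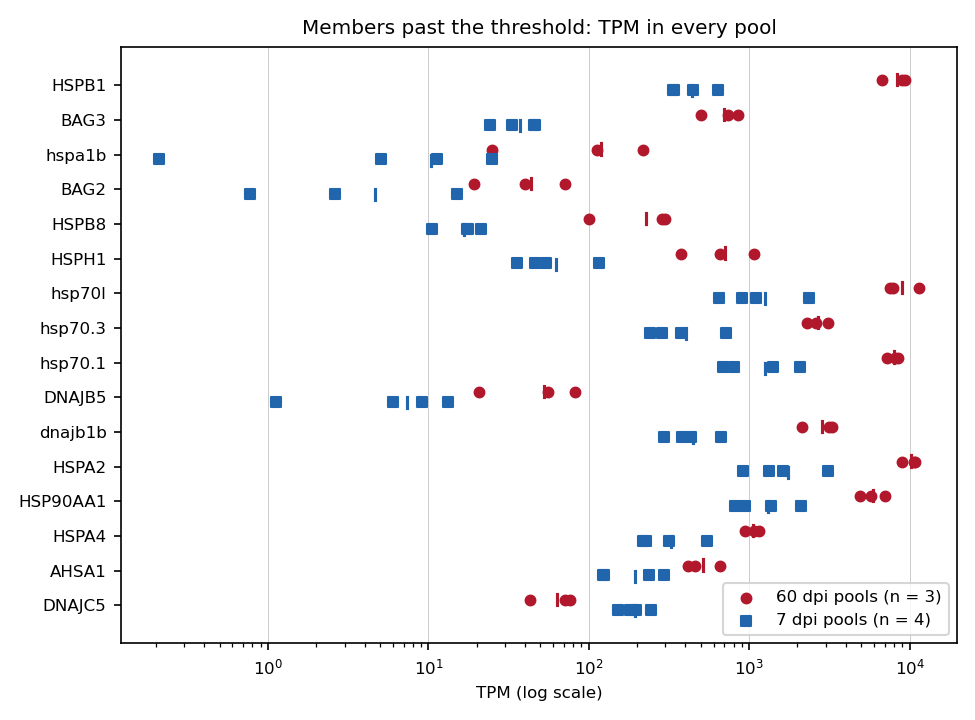
TPM (horizontal log axis) of the 16 chaperone IDs past the adjusted threshold, with a point per library above 0 TPM and a bar at each group mean. BAG2 was at 0 TPM in 7 dpi replicate 4, which a log axis cannot show. Each ID has a row, with the 60 dpi points drawn over the 7 dpi points. In all 15 that were higher, every 60 dpi point lies to the right of every 7 dpi point. In DNAJC5 every 60 dpi point lies to the left.

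Hsp90 is the abundant chaperone that matures kinases and steroid receptors. It was higher at 60 dpi in 1 of 3 tested IDs, against 3.2% of all tested genes. HSP90AA1 (ENSDARG00000024746), whose mammalian counterpart is the inducible form, had 4900, 7067 and 5766 TPM in the 60 dpi pools and 2090, 819, 938 and 1377 TPM in the 7 dpi pools. The groups did not overlap, and the difference was 2.26 ± 0.32 (log2, SE, limma adjusted p = 0.0024); without the mean-variance trend it narrowly missed (adjusted p = 0.0565). HSP90AB1, the constitutive form, had 1474, 1265 and 1283 TPM at 60 dpi, against 1579, 854, 897 and 758 TPM at 7 dpi. It overlapped through 7 dpi replicate 1, and its difference of 0.45 ± 0.28 did not pass (limma adjusted p = 0.386) and was -0.08 with quantile normalization. As a description, HSP90AA1 was 3.32, 5.59 and 4.49 times as abundant as HSP90AB1 in the 60 dpi libraries and 1.32, 0.958, 1.04 and 1.82 times in the 7 dpi libraries. hsp90aa1.1, the zebrafish Hsp90 that folds muscle myosin, had 7.80, 154 and 118 TPM in the 60 dpi pools and 17.2, 18.9, 13.5 and 13.5 TPM in the 7 dpi pools. Its 60 dpi replicate 1 lay below all 7 dpi libraries and the other two far above them, and it did not pass (1.72 ± 0.82, limma adjusted p = 0.247) except without that library (adjusted p = 0.00667).

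Of the 3 tested Hsp90 co-chaperone IDs, 1 was higher at 60 dpi, against 3.2% of all tested genes. AHSA1 (ENSDARG00000100317), the activator of the Hsp90 ATPase, had 417, 458 and 661 TPM in the 60 dpi pools and 293, 124, 237 and 122 TPM in the 7 dpi pools (1.47 ± 0.36, limma adjusted p = 0.0308). The groups did not overlap, but it did not pass without 60 dpi replicate 1 (adjusted p = 0.051), 2 (0.0747) or 4 (0.104) or without 7 dpi replicate 2 (0.0751) or 4 (0.0636). The second AHSA1 ID averaged 9.83 TPM in the 60 dpi pools and 1.32 TPM in the 7 dpi pools without passing (limma adjusted p = 0.295). STIP1 (Hop), the adaptor that carries clients between Hsp70 and Hsp90, had 151, 208 and 158 TPM at 60 dpi, against 138, 53.6, 60.2 and 81.4 TPM at 7 dpi. These did not overlap, and the difference of 1.12 ± 0.37 did not pass (limma adjusted p = 0.096), except without 7 dpi replicate 1 (adjusted p = 0.0359) and with median-of-ratios scaling (0.0496).

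Small heat-shock proteins were higher at 60 dpi in 2 of 4 tested IDs, against 3.2% of all tested genes. Their summed level came almost wholly from HSPB1. HSPB1 (Hsp27, ENSDARG00000041065), which holds unfolding proteins and binds actin filaments, had 6766, 9381 and 8921 TPM at 60 dpi, against 638, 449, 336 and 341 TPM at 7 dpi. The means were 8356 ± 1396 TPM at 60 dpi (SD, n = 3) and 441 ± 142 TPM at 7 dpi (SD, n = 4), and the difference was 4.28 ± 0.28 (log2, SE, limma adjusted p = 2.3e-05), the largest of the 91 tested. HSPB1 was the 18th, 8th and 9th most abundant ID in the 60 dpi libraries and ranked 193, 175, 268 and 287 in the 7 dpi libraries. It made up 95.8 to 98.2% of small heat-shock TPM at 60 dpi, against 87.6 to 96.9% at 7 dpi. HSPB8 (ENSDARG00000058365), the partner of BAG3 in a complex that sorts misfolded proteins for autophagy, had 101, 286 and 298 TPM in the 60 dpi pools and 17.3, 21.3, 17.6 and 10.5 TPM in the 7 dpi pools. The groups did not overlap, and the difference was 3.58 ± 0.46 (limma adjusted p = 0.00126).

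The remaining small heat-shock genes were low or unsettled. HSPB7, a heart-enriched member, had 14.6, 86.1 and 25.5 TPM at 60 dpi, against 31.2, 13.8, 23.99 and 0.42 TPM at 7 dpi, and the groups overlapped (1.53 ± 0.996, limma adjusted p = 0.406). hspb9l had 0, 16.03 and 38.5 TPM in the 60 dpi pools and 4.65, 13.5, 3.63 and 0 TPM in the 7 dpi pools (0.99 ± 1.28, limma adjusted p = 0.721). The other 8 of the 12 IDs were not tested. Among them CRYAB (alpha-B crystallin), a chaperone of lens and muscle, had 2, 0 and 0 TPM in the 60 dpi pools and 0, 0.41, 0 and 0 TPM in the 7 dpi pools in the more abundant of its IDs, and HSPB2, hspb9 and hspb15 were listed at 0 throughout. hspb11 had 4.91, 23.8 and 0 TPM at 60 dpi and 0 in every 7 dpi library.

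The CCT complex, a ring of 8 kinds of subunit that folds actin and tubulin, gave no call. None of its 8 tested subunits passed in limma, against 6.88% of all tested genes, which for so few IDs is near that share. Their median log2 difference was 0.15. None had an unadjusted limma p under 0.05, which 3333 of all 15130 tested genes had. CCT7, the most abundant, averaged 183 ± 21.0 TPM at 60 dpi (SD, n = 3) and 127 ± 49.2 TPM at 7 dpi (SD, n = 4), a difference of 0.59 ± 0.34 (limma adjusted p = 0.341). CCT8 had 63.5, 68.1 and 147 TPM at 60 dpi, against 57.9, 36.4, 45.9 and 62.7 TPM at 7 dpi, so the groups stood apart by a small gap (0.78 ± 0.40, limma adjusted p = 0.281). For CCT3, CCT4, CCT5, CCT6B and TCP1 the limma adjusted p was between 0.717 and 0.937. cct2 had 41.3, 0 and 0 TPM in the 60 dpi pools and 38.4, 14.01, 35.5 and 1.13 TPM in the 7 dpi pools, which leaves its difference of -2.07 ± 1.39 unresolved (limma adjusted p = 0.423).

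In the ER, where chaperones fold secreted and membrane proteins such as collagen, none of the 16 tested IDs passed. Among all tested genes 6.88% did, and with so few IDs, having none is near that share. The median log2 difference of the 16 was 0.00 with a range of -1.43 to 1.29. HSPA5 (BiP), the ER form of Hsp70 and a standard target of the unfolded protein response, had 490.3, 411 and 490 TPM at 60 dpi, against 510.2, 214, 223 and 244 TPM at 7 dpi. Only 7 dpi replicate 1 reached the 60 dpi level, and the difference of 0.73 ± 0.33 (limma adjusted p = 0.215) passed without that library (1.02, adjusted p = 0.0396). HSP90B1 (Grp94), the ER form of Hsp90, had 237, 231 and 193 TPM in the 60 dpi pools and 384, 177, 190 and 285 TPM in the 7 dpi pools, a difference of -0.16 ± 0.32 (limma adjusted p = 0.83). DNAJB11, the BiP co-factor, had 26.8, 17.98 and 9.99 TPM at 60 dpi, against 79.1, 44.5, 52.0 and 5.93 TPM at 7 dpi (-0.92 ± 0.76, limma adjusted p = 0.53). HSPA13 had 3.10, 19.8 and 8.29 TPM in the 60 dpi pools and 47.3, 18.8, 15.2 and 23.9 TPM in the 7 dpi pools, which overlap (-1.43 ± 0.66, limma adjusted p = 0.233). DNAJB12 (ENSDARG00000087473), a J protein anchored in the ER membrane, had 23.2, 35.9 and 6.80 TPM at 60 dpi, against 42.1, 19.5, 24.3 and 165 TPM at 7 dpi, so that 1 library set its 7 dpi mean (-1.20 ± 0.74, limma adjusted p = 0.378). DNAJC1, another ER J protein, had 30.8, 19.4 and 90.5 TPM at 60 dpi, against 20.6, 14.6, 18.4 and 15.5 TPM at 7 dpi, so the groups overlapped and 60 dpi replicate 4 stood highest (1.11 ± 0.55, limma adjusted p = 0.263).

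Mitochondrial chaperones, which fold imported proteins, gave no call among 10 tested IDs, against 6.88% of all tested genes. With so few IDs, having none is near that share. The median log2 difference of the 10 was 0.21. HSPD1 (Hsp60) and its lid HSPE1 (Hsp10) are neighbours in the RefSeq annotation. HSPD1 had 47.5, 90.8 and 88.9 TPM at 60 dpi, against 113, 32.1, 47.8 and 21.7 TPM at 7 dpi (0.70 ± 0.53, limma adjusted p = 0.484). HSPE1 had 221, 531 and 293 TPM in the 60 dpi pools and 234, 127, 126 and 312 TPM in the 7 dpi pools (0.81 ± 0.40, limma adjusted p = 0.263). Both pairs of groups overlapped. HSPA9 (mortalin), the Hsp70 of the import motor, had 130, 162 and 179 TPM at 60 dpi, against 179, 91.8, 98.7 and 116 TPM at 7 dpi (0.41 ± 0.32, limma adjusted p = 0.516). dnajc4, the most abundant of the mitochondrial J proteins over both groups, had 10.4, 5.15 and 22.8 TPM at 60 dpi, against 15.02, 8.15, 8.86 and 22.5 TPM at 7 dpi, and the groups overlapped (-0.19 ± 0.66, limma adjusted p = 0.909). DNAJC15, a J protein of the inner membrane, was at 0.12, 0.81 and 0.13 TPM in the 60 dpi pools and 18.5, 16.2, 8.46 and 0 TPM in the 7 dpi pools, a difference of -2.51 ± 1.07 (limma adjusted p = 0.191) that passed without 7 dpi replicate 4 (-3.48, adjusted p = 0.025) and without both libraries numbered 4 (-3.37, adjusted p = 0.0292).

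Other genes of the protein-folding network were read from a separate list of 70 names, of which 67 were found, with 74 IDs. Of 72 tested, 7 were higher and none lower at 60 dpi in limma, a share of 9.72%, against 6.88% of all tested genes. In 10 of the 72 the level was lower with an unadjusted limma p under 0.05, as in 1880 of all 15130 tested genes. The median log2 difference of the 72 was -0.28, and that of all tested genes -0.04. FKBP5, an Hsp90 partner of steroid receptors that glucocorticoids induce, had 477, 286 and 346 TPM at 60 dpi, against 33.3, 21.98, 31.3 and 24.8 TPM at 7 dpi. No library of either group came near the other group, and the difference was 3.67 ± 0.34 (log2, SE, limma adjusted p = 0.000161). ppp1r15a (GADD34), which restores translation after stress, averaged 1130 ± 113 TPM at 60 dpi (SD, n = 3) and 250.3 ± 44.8 TPM at 7 dpi (SD, n = 4), a difference of 2.18 ± 0.25 (limma adjusted p = 0.000771). The polyubiquitin ID ubb (ENSDARG00000093313), from a gene that supplies ubiquitin under stress, averaged 746 ± 50.7 TPM at 60 dpi (SD, n = 3) and 234 ± 28.1 TPM at 7 dpi (SD, n = 4), a difference of 1.68 ± 0.24 (limma adjusted p = 0.00262) that was lost without the mean-variance trend (adjusted p = 0.0826). ubb is also the gene whose promoter drives the reporter in every fish.

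The other 4 calls of the list depended on single libraries. UBB (ENSDARG00000002369, 1.56 ± 0.33, limma adjusted p = 0.0153) was lost without 60 dpi replicate 2 (adjusted p = 0.0673). CHAC1, which degrades glutathione and is a target of ATF4 (1.37 ± 0.29, limma adjusted p = 0.0148), was lost without 60 dpi replicate 2 (0.0547) or 7 dpi replicate 3 (0.056). PTGES3 (p23, ENSDARG00000037284), an Hsp90 co-chaperone (1.70 ± 0.44, limma adjusted p = 0.0387), was lost without 60 dpi replicate 2 (0.13) or 4 (0.115) or 7 dpi replicate 2 (0.0826) or 3 (0.0915). atf4b, a transcription factor of the integrated stress response (0.99 ± 0.26, limma adjusted p = 0.039), was lost without 60 dpi replicate 1 (0.0525), 2 (0.137) or 4 (0.107) or 7 dpi replicate 2 (0.0934), 3 (0.109) or 4 (0.0511). In all, 3 of the list's IDs were called higher without 60 dpi replicate 2 and 4 without 7 dpi replicate 3.

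Several other partners of Hsp70, Hsp90 and the organelles did not pass. These were the ubiquitin ligase STUB1 (CHIP, -0.55 ± 1.13, limma adjusted p = 0.838), the Hsp70 adaptor ST13 (0.64 ± 0.45, 0.442) and the second PTGES3 ID (0.50 ± 0.41, 0.529). In the ER, HYOU1, an Hsp110 relative, averaged 120 ± 70.07 TPM at 60 dpi (SD, n = 3) and 237 ± 127 TPM at 7 dpi (SD, n = 4), a difference of -0.98 ± 0.46 (limma adjusted p = 0.234). The collagen chaperone SERPINH1 (Hsp47) has a pair of IDs, with differences of 0.93 ± 0.36 (limma adjusted p = 0.148) and -0.61 ± 0.41 (0.423). In mitochondria, TRAP1, the local Hsp90, was listed at 0 in all 3 of the 60 dpi libraries and had 3.62, 0.78, 3.51 and 8.67 TPM at 7 dpi (limma adjusted p = 0.121), and the exchange factor GRPEL1 differed by -1.21 ± 0.78 (limma adjusted p = 0.403).

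Other gene groups differed between the 60 and 7 dpi libraries as well. Immediate early genes, which are transcribed within minutes of a stimulus, were higher in 13 of 25 tested IDs and lower in none with limma. Among all tested genes 3.2% were called higher and 3.68% lower. When single libraries were left out, 11 to 15 of the 25 were higher. In 1 of the 25 the level was lower with an unadjusted limma p under 0.05. Their log2 differences ranged from -2.17 to 4.50, with a median of 1.57. Their summed level was 15068, 13171 and 11713 TPM at 60 dpi, against 2855, 1616, 2010 and 1873 TPM at 7 dpi, with replicate 1 again the highest at 7 dpi. With median-of-ratios scaling the lead of replicate 1 was small (2050 TPM, against 1721 to 1948 TPM in the other 7 dpi libraries). FOS alone averaged 6898 ± 1030 TPM at 60 dpi (SD, n = 3) and 510.0 ± 88.1 TPM at 7 dpi (SD, n = 4), a difference of 3.76 ± 0.24 (limma adjusted p = 2.3e-05). Their part in the chaperone levels was not tested.

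Markers of other cell types also differed between pools. The counts of calls below stand beside 3.2% higher and 3.68% lower at 60 dpi among all tested genes. Cardiomyocyte markers summed to 396, 4429 and 3420 TPM in the 60 dpi pools and 571, 793, 485 and 369 TPM in the 7 dpi pools; 1 of 15 tested IDs, MYL7, passed as higher, 7 passed without 60 dpi replicate 1, and none passed without 60 dpi replicate 4 or without 7 dpi replicate 1, 3 or 4. hsp90aa1.1 had this distribution over the 60 dpi libraries, and some of the 15 chaperone IDs called higher also had more in replicates 2 and 4 than in replicate 1. The mean of replicates 2 and 4 was 6.62 times replicate 1 for hspa1b, 3.29 times for DNAJB5, 2.90 times for HSPB8, 2.89 times for BAG2 and 2.33 times for HSPH1. For the other 10 it was between 0.858 times (dnajb1b) and 1.59 times (BAG3). As a description of IDs that were chosen with this library included, 60 dpi replicate 1 stood between 1.01 times (hspa1b) and 10.8 times (BAG3) the highest 7 dpi library. The part of cardiomyocyte RNA in these levels was not tested. Macrophage markers were lower at 60 dpi in 11 of 14 tested IDs (8 to 11 when single libraries were left out), and summed to 2856, 2272 and 4961 TPM, against 10371, 7849, 8422 and 9925 TPM at 7 dpi. Their part in the chaperone levels, DNAJC5 included, was not tested, and in pooled RNA fewer cells of a type and less RNA per cell cannot be told apart. Neutrophil markers summed to 7.45 to 12.7 TPM at 60 dpi and 76.0 to 204 TPM at 7 dpi, while sums of fibroblast markers overlapped, at 5421 to 7083 TPM at 60 dpi and 6139 to 8197 TPM at 7 dpi. Of the 12 fibroblast IDs, 2 were lower at 60 dpi, an ID each of POSTN (-3.12 ± 0.26, limma adjusted p = 0.000101) and FN1 (-2.15 ± 0.35, 0.0044), and 2 were higher, DCN among them (1.23 ± 0.30, 0.0278). Neither of the higher calls was kept without any one of 60 dpi replicates 1, 2 and 4 or 7 dpi replicate 2. Erythrocyte and endothelial marker sums also overlapped, and no ID of either list passed.

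**Figure D5:**
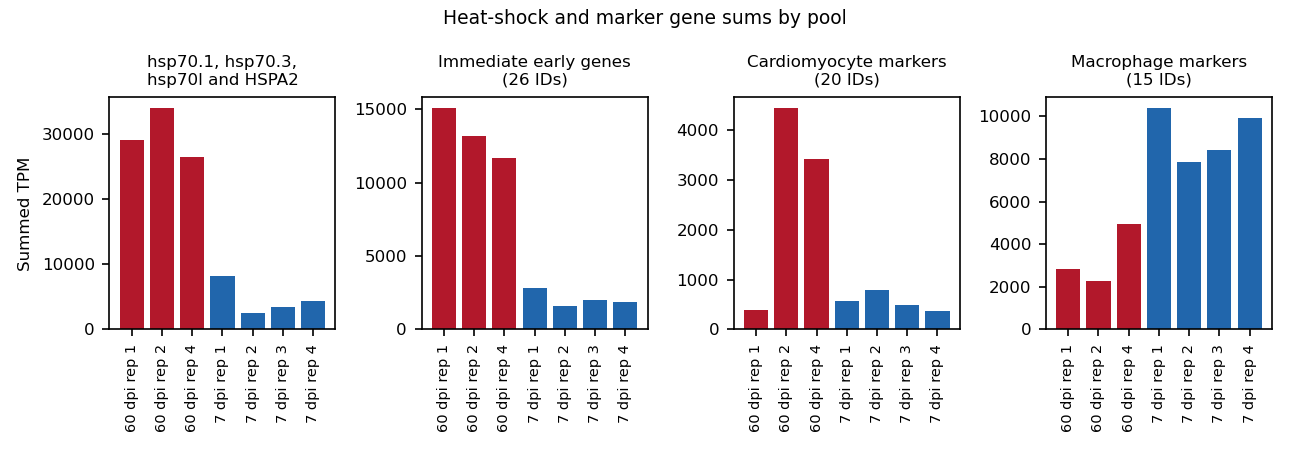
Summed TPM (linear axis) in each library, 60 dpi left of 7 dpi. The panels show hsp70.1, hsp70.3, hsp70l and HSPA2 together, immediate early genes, cardiomyocyte markers and macrophage markers. Immediate early sums lie between 11713 and 15068 TPM at 60 dpi and between 1616 and 2855 TPM at 7 dpi, and cardiomyocyte sums are high in replicates 2 and 4 of 60 dpi only.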

How the data were processed

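RNA of 7 pools of sorted cells was measured. Expression was deposited by the authors as TPM in 1 table; reads were handled with RSEM 1.2.25, cutadapt and CASAVA 1.8.2 and the build Zv9, per the submitters' processing notes, while the aligner and annotation release are not given in the sources used here. Per the labels' protocols, libraries were amplified from 0.2 to 0.6 ng of RNA, so transcripts of low abundance can drop to 0 at random. TPM keeps no read depth, so counting error is unknown. A supplied name table gave 25925 of 31388 IDs (82.6%) a symbol; none of its 113 matching IDs is given coordinates or sequence. Sample titles gave each library its group and number.

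The 15130 genes that reached 1 TPM in 3 or more libraries were fitted as log2(TPM + 1) with limma 3.58.1 (R 4.3.3), with a mean-variance trend and no term besides the time point. P-values were two-sided and Benjamini-Hochberg adjusted over all 15130. The fit was first run on simulated data, drawn independently for each gene and library with planted differences. These data held no effects shared by the genes of a library, such as those of handling. They therefore do not show how the calls hold up against such effects. The IDs, lists and alternatives were chosen with earlier results of these data known, so no list was given a test of its own. Named were all IDs past the threshold, the most abundant ID of each class, the tested core families, and called or preset network genes. dnaja1, dnajb1a, DNAJB11, DNAJC1, DNAJC15, hspb11, FOS, POSTN, FN1 and DCN were singled out after their values were seen. DNAJA2, HSPA12B, HSPD1, STIP1, the second AHSA1 ID and the untested HSF4, CRYAB, HSPB2, hspb9 and hspb15 were also described outside those rules. Tables were made with pandas 2.3.3 and numpy 2.4.6 in Python 3.11.15, and figures with matplotlib 3.10.9. RefSeq's GRCz12tu gene order, matched for 86 symbols, was used only for neighbours.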

Additional observations from a re-analysis of the deposited data

Results flagged for a closer look

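Of 60 named IDs that were checked, in 5 (4 chaperones and HSPBAP1) the highest of the 4 libraries at 7 dpi stood apart from the other 3 by more than Dixon's critical value; by chance about 1 in 20 such groups is picked out, and 3 libraries at 60 dpi are too few for this check. HSPA5 stood at 510.2 TPM in 7 dpi replicate 1, HSP90AB1 at 1579 TPM and TCP1 at 59.1 TPM in the same library. That library also had the largest median-of-ratios size factor (1.39). DNAJB12 (ENSDARG00000087473), a J protein of the ER membrane, stood at 164.66 TPM and HSPBAP1 at 22.5 TPM in 7 dpi replicate 4. None of the 5 passed the test between 60 and 7 dpi in all libraries, and HSPA5 passed once 7 dpi replicate 1 was left out.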

How the results depend on the processing

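All alternatives were recomputed over the whole table. Counts under them are given without the share of all tested genes called in the same setting. A change in a count is therefore not shown to be particular to the IDs counted. Of the 15 IDs called higher at 60 dpi, 9 (HSPB1, BAG3, HSPB8, HSPH1, hsp70l, hsp70.1, hsp70.3, HSPA2 and dnajb1b) were called under all 18 alternatives. The count of members called higher was 9 without the mean-variance trend and lay between 11 and 16 when single libraries were left out; the count called lower was 0 without the trend, 2 with quantile normalization, 2 without both libraries numbered 4 and 1 to 2 with single libraries left out. The replicate block, which treats same-numbered libraries as pairs although they did not deviate together (correlations of 0.0054, 0.0145 and 0.028), gave 10 members higher and 0 lower (HSPA4 ENSDARG00000004754, adjusted p = 0.0662, and DNAJC5, 0.103, were among those lost), and 3 network genes higher. Network genes called higher numbered 2 without the trend, 4 without both libraries numbered 4 and 3 to 9 with single libraries left out; those called lower numbered 3 with quantile normalization, 1 with median-of-ratios scaling, 5 with TPM rescaled over named IDs and 0 to 1 with single libraries left out. Rescaling over named IDs moved the median of all genes to -0.26 in place of -0.04 and turned the ER sum to a log2 ratio of -0.037 in place of 0.19; the cytosolic log2 ratio was then 1.91 in place of 2.14. Without the trend, 7 immediate early IDs were called higher and 3 macrophage IDs lower. Among the named IDs, directions turned only in those that were not called. With quantile normalization hsf1 was 0.13, HSPA14 0.22 and HSP90AB1 -0.081; with rescaled TPM CCT6B was -0.063 and CCT5 -0.17; with the replicate block HSPA4 (ENSDARG00000018989) was 0.10 and CCT5 -0.093. Without both libraries numbered 4, hspb9l was -0.81, hsf1 0.29, CCT4 0.19, CCT5 -0.27 and DNAJB12 (ENSDARG00000087473) 0.084. Leaving out single libraries gave both signs in 11 of them: -0.24 to 0.29 in hsf1, -0.31 to 0.36 in HSPA4 (ENSDARG00000018989), -0.35 to 0.44 in CCT5, -0.41 to 0.26 in TCP1, -0.33 to 0.17 in CCT4, -0.069 to 0.56 in CCT6B, -0.70 to 0.28 in dnajc4, -1.34 to 0.11 in HSPA14, -0.097 to 2.55 in hspb9l, -0.32 to 0.050 in HSP90B1 and -1.68 to 0.61 in STUB1. The cause of these turns was not tested. TPM holds no depth, so low IDs such as hsf1 and CRYAB carry an unknown counting error.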
